A study of Mus musculus with 10 samples.

Results

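Skeletal and cardiac muscle are striated tissues, and 10 genes that serve them were followed here: Acta1, Actc1, Des, Tnnt2, Tnnc1, Tnni1, Myl4, Myod1, Myf5 and Myog. Each symbol matched 1 of the 42465 gene models in the deposited table. The rule takes rows by gene symbol. Neural tubes from mouse embryos had been explanted with their neural crest cells and sequenced as 10 libraries, 5 from wild-type (WT) embryos and 5 from embryos labelled Ednrb-/-. Ednrb encodes the endothelin receptor type B, and the series concerns the growth in number of melanoblasts, from which pigment cells form. Explants of both genotypes were taken at embryonic day 9.5 and cultured for 4 days with 20 nM EDN3, the ligand of this receptor, in 10% serum, so no library shows a culture without the ligand. The sources used here do not say which allele was used, on what strain background, or how many explants went into a library. An explant is a mixed tissue, and in bulk RNA fewer cells of a type and less RNA per cell cannot be told apart.

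In a striated muscle cell, actin thin filaments slide along myosin thick filaments within a repeating unit called the sarcomere. Calcium starts the movement by binding troponin, a thin-filament complex of a calcium-binding subunit (troponin C), an inhibitory subunit (troponin I) and a tropomyosin-binding subunit (troponin T), and desmin filaments tie neighbouring sarcomeres together. Skeletal muscle of the trunk forms from somites, which lie beside the neural tube, under the transcription factors Myf5, Myod1 and Myog, whereas heart muscle forms without these factors. Several of the structural genes are not exclusive to striated muscle: the embryo uses cardiac actin and slow or cardiac troponins in skeletal muscle too, and desmin is also made by smooth muscle.

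Acta1, Actc1 and Des were the members that passed the test across all genes described below, and their promoters are shown because they hold short motifs known in muscle genes. The stretches printed are the last 150 bases before the annotated start, 5′ to 3′, from RefSeq on GRCm38.p6. Capitals mark a CArG box, the motif bound by serum response factor (SRF), in Acta1 and Actc1, and CAGCTG, a form of the E-box (CANNTG) bound by MyoD-family factors, in Des.
Acta1 chr8:123894776-123894925, minus strand: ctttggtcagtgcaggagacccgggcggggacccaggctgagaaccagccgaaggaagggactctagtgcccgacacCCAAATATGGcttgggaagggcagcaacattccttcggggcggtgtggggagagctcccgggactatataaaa
Actc1 chr2:114052876-114053025, minus strand: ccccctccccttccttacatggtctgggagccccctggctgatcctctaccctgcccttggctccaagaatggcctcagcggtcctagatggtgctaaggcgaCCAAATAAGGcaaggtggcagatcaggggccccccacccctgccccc
Des chr1:75360142-75360291, plus strand: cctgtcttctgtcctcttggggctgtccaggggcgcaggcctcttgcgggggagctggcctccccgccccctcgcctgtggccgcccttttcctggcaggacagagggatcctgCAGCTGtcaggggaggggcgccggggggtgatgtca
The CArG box begins 73 bases upstream of the start in Acta1 and 47 bases upstream in Actc1, and the capitals in Des begin 36 bases upstream. Both strands were searched over 250 bases for the 9 members with a RefSeq entry, Myod1 having no entry in the table used. A CArG box was found in 2 of these 9 members and in 1.47% of 32851 mouse promoters of this length. CAGCTG, which is also counted among the matches to CANNTG, was found in 4 of 9 members (Acta1, Des, Tnnt2 and Tnni1) and in 13% of promoters. The looser CANNTG was in 6 of 9 members and in 66.2% of promoters. A match is a stretch of letters and does not show that a factor binds there.

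The libraries held between 13022266 and 19532570 reads, worked back from the FPKM values (fragments scaled to gene length and to library size). The library size implied by the values was 0.953 to 1.03 times the reads worked back for that library. The level of Ednrb matched the labels, at 52.3 ± 7.16 FPKM (mean ± SD, n = 5) under WT and 7.15 ± 3.41 FPKM (n = 5) in the mutant libraries, with no overlap. The low end of the table differed between libraries: genes with exactly 1 read numbered 191 in Ednrb-/- replicate 2 and 224 in replicate 3, but between 986 and 2421 in the other 8 libraries. Zeros in those 2 libraries enter several results below, which were therefore also computed without both, an alternative chosen after seeing the data.

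Acta1, Actc1 and Des were lower in Ednrb-/- than in WT explants, by 9.56-, 5.41- and 8.88-fold in mean FPKM. Tnnt2 missed the filter on low values, and Tnni1, Tnnc1 and Myl4 did not pass the test across all genes. By the exact permutation test of a single gene, with no adjustment, p was 0.0238 for Tnnt2 and 0.0476 for Tnni1, both with lower means in the mutant. Myod1, Myf5 and Myog, the regulators of skeletal muscle, were at or near 0 in most libraries of both genotypes. In all, 6 members passed the filter on low values (at least 0.5 FPKM in at least 5 of 10 libraries) and 4 did not. By limma on log2(FPKM + 0.5), with Benjamini-Hochberg adjustment over all 15156 genes tested, 3 of the 6 fell at a threshold of 0.05 and 0 rose. Of all genes tested, 13% fell and 6.53% rose.

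**Figure D1:**
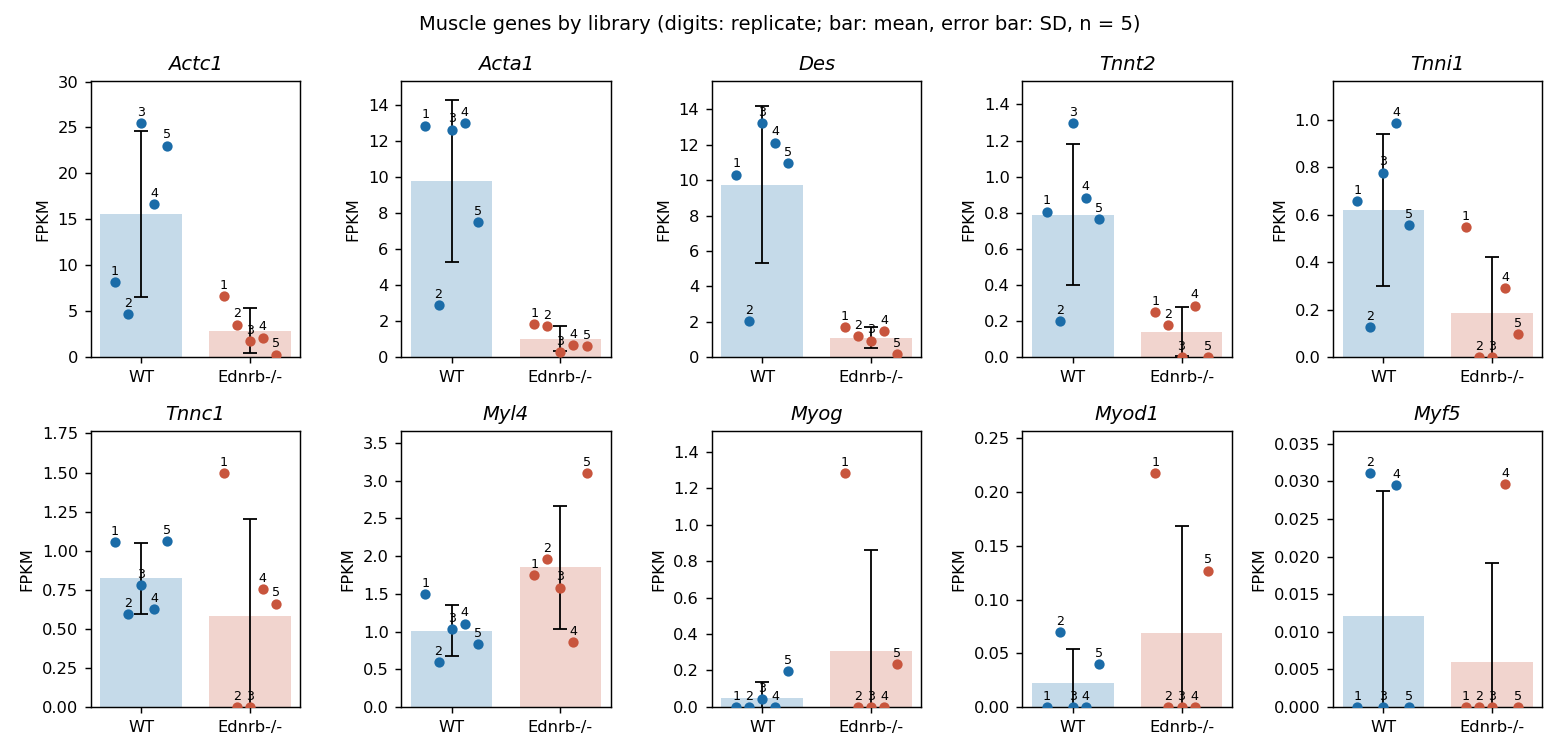
FPKM of the 10 members in the 5 WT (blue) and 5 Ednrb-/- (red) libraries, 1 panel per gene with its own linear axis from 0, where points are libraries with their replicate number, bars are means and error bars are SD. Acta1 and Des separate the genotypes, Actc1 overlaps through Ednrb-/- replicate 1 at 6.68 FPKM, Myl4 has the higher mean in the mutant libraries, and Myod1 reaches at most 0.218 FPKM.

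Acta1 (MGP_C57BL6NJ_G0034757, chromosome 8, 131818454 to 131821422, minus strand) encodes the actin of adult skeletal muscle. Here and below, coordinates are those of the table, whose identifiers belong to the C57BL/6NJ strain assembly, whereas the promoters above are on GRCm38.p6. Acta1 stood at 12.9, 2.89, 12.6, 13.01 and 7.50 FPKM in WT replicates 1 to 5 and at 1.83, 1.71, 0.267, 0.686 and 0.615 FPKM in Ednrb-/- replicates 1 to 5. Every WT library lay above every Ednrb-/- library, with WT replicate 2 far below the other WT libraries and closest to the mutant range. Mean levels were 9.78 ± 4.50 for WT and 1.02 ± 0.704 FPKM for the mutant (SD, n = 5 each), resting on 64 to 305 reads per WT library and 7 to 52 reads per Ednrb-/- library. Acta1 fell by 2.72 on the log2(FPKM + 0.5) scale (SE 0.43, limma adjusted p = 0.00324), and the exact two-sided permutation p was 0.00794, the smallest that 5 against 5 libraries can give. Complete separation of this kind, with the mutant libraries lower, held for 8.44% of all genes tested.

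Actc1 (MGP_C57BL6NJ_G0026722, chromosome 2, 120378528 to 120384792, minus strand) encodes the actin of heart muscle, which embryonic skeletal muscle also uses. Its values were 8.21, 4.67, 25.5, 16.6 and 23.0 FPKM in WT replicates 1 to 5 and 6.68, 3.56, 1.76, 2.13 and 0.291 FPKM in Ednrb-/- replicates 1 to 5. The groups overlapped, because Ednrb-/- replicate 1 was above WT replicate 2, and both genotypes varied widely among their own libraries. Mean levels were 15.6 ± 9.05 for WT and 2.88 ± 2.42 FPKM for the mutant (SD, n = 5 each), from 117 to 648 and 8 to 214 reads per library. Actc1 fell by 2.35 on the log2 scale (SE 0.59, limma adjusted p = 0.0171, exact permutation p = 0.0159). Without Ednrb-/- replicates 2 and 3 the log2 difference was -2.47 and the limma adjusted p was 0.0669, so the call was lost, in a fit where 7.36% of all genes fell.

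Reads could in principle be shared between actin genes, whose coding sequences are alike. In GENCODE M21, 28 of the 1397 windows of 50 bases in the Acta1 transcript compared (2.00%) also occur in that of Actb, the cytoplasmic actin, and 0 occur in those of Actc1, Acta2 or Actg2. The Actc1 transcript shared no window of this length with the other 4 actins. Acta2, the smooth muscle actin, was far more abundant than either member, with 143 to 1323 FPKM under WT against 18.0 to 130 FPKM in the mutant. The sources used here do not say how reads that match several genes were counted.

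Des (MGP_C57BL6NJ_G0016576, chromosome 1, 78880030 to 78888280, plus strand) encodes desmin, the intermediate filament of muscle cells. Des stood at 10.3, 2.05, 13.2, 12.1 and 11.0 FPKM in WT replicates 1 to 5 and at 1.71, 1.21, 0.931, 1.46 and 0.172 FPKM in Ednrb-/- replicates 1 to 5. The groups did not overlap, but WT replicate 2 lay just above the highest mutant library and Ednrb-/- replicate 5 well below the other mutant libraries. Mean levels were 9.73 ± 4.44 for WT and 1.10 ± 0.591 FPKM for the mutant (SD, n = 5 each), from 119 to 780 and 11 to 127 reads. Des fell by 2.58 on the log2 scale (SE 0.47, limma adjusted p = 0.00472, exact permutation p = 0.00794). Acta1 and Des both still passed without Ednrb-/- replicates 2 and 3, with limma adjusted p = 0.0290 and 0.0345. Gene models that overlap Actc1, Des and Myl4 had 0 reads in every library.

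In WT, mean FPKM of each of the 3 troponin genes was below that of Acta1 and Actc1. The means of the mutant libraries also ran this way. In single mutant libraries the order did not hold throughout, since Tnnc1 was above Acta1 in Ednrb-/- replicates 4 and 5. Tnnt2 (MGP_C57BL6NJ_G0016934, chromosome 1, 144650228 to 144666073, plus strand) encodes cardiac troponin T, the subunit that holds the complex on tropomyosin. Tnnt2 was at 0.806, 0.200, 1.30, 0.883 and 0.765 FPKM in WT replicates 1 to 5 and at 0.248, 0.178, 0, 0.285 and 0 FPKM in Ednrb-/- replicates 1 to 5. All WT libraries except replicate 2 were above all mutant libraries, and WT replicate 2 lay inside the mutant range. If reads were counted down to 1, a count of 0 allows up to 0.0211 FPKM in Ednrb-/- replicate 3 and 0.0228 FPKM in replicate 5, taking 3 reads as the limit for counting error. In Ednrb-/- replicates 2 and 3, where few genes have exactly 1 read, it is not known whether low counts were removed, and such limits may then be too low. With 24 to 158 reads in WT and 0 to 38 reads in mutant libraries, mean levels were 0.790 ± 0.392 for WT and 0.142 ± 0.135 FPKM for the mutant (SD, n = 5 each). Only 4 libraries, all WT, reached 0.5 FPKM, so Tnnt2 missed the filter. Its log2 difference was -0.97, with an exact two-sided permutation p of 0.0238. In the limma fit with no filter its adjusted p was 0.0418, where 6.69% of 28144 genes fell. That call was lost in 8 of the 10 fits that left out 1 library, with adjusted p between 0.00657 and 0.107, and in the fit with the replicate number as a block (limma adjusted p = 0.122). Without Ednrb-/- replicates 2 and 3 the exact permutation p was 0.0893.

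Tnni1 (MGP_C57BL6NJ_G0016932, chromosome 1, 144591652 to 144624948, plus strand) encodes the slow skeletal troponin I, the inhibitory subunit, which the embryonic heart also uses. It lies 25279 bases from Tnnt2 on the same strand. Tnni1 was at 0.657, 0.126, 0.777, 0.985 and 0.556 FPKM in WT replicates 1 to 5 and at 0.547, 0, 0, 0.290 and 0.0980 FPKM in Ednrb-/- replicates 1 to 5. As with Tnnt2, WT replicate 2 lay inside the mutant range, and Ednrb-/- replicate 1 lay just under the WT library next above it. The counts behind these values were 7 to 58 reads in WT and 0 to 39 reads in mutant libraries, and 3 reads, the limit under the same condition, are 0.0640 and 0.0455 FPKM in Ednrb-/- replicates 2 and 3. Mean levels were 0.620 ± 0.319 for WT and 0.187 ± 0.234 FPKM for the mutant (SD, n = 5 each), a log2 difference of -0.71 (SE 0.31, limma adjusted p = 0.128, exact permutation p = 0.0476). Tnni1 therefore did not pass across all genes, and it had reached the filter through 4 WT libraries and 1 mutant library. It did pass in the limma fit with library weights (adjusted p = 0.0371), in which 17.1% of all genes fell, and with WT replicate 2 left out (limma adjusted p = 0.0445), in which 14% fell.

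Tnnc1 (MGP_C57BL6NJ_G0021506, chromosome 14, 25351484 to 25354838, plus strand) encodes the calcium-binding troponin C of heart and slow skeletal muscle. Tnnc1 was at 1.05, 0.595, 0.780, 0.625 and 1.06 FPKM in WT replicates 1 to 5 and at 1.498, 0, 0, 0.754 and 0.661 FPKM in Ednrb-/- replicates 1 to 5. The highest library of all and the only zeros were all mutant, and the other 2 mutant libraries lay within the WT range. For this short gene, 3 reads are 0.235 and 0.168 FPKM in Ednrb-/- replicates 2 and 3. Mean levels were 0.823 ± 0.225 for WT and 0.583 ± 0.623 FPKM for the mutant (SD, n = 5 each), a log2 difference of -0.48 (SE 0.38, limma adjusted p = 0.417, exact permutation p = 0.325). Without Ednrb-/- replicates 2 and 3, the libraries with the zeros, the sign turned (0.13, limma adjusted p = 0.772). The whole Tnnc1 model of 3355 bases lies within Nisch on the opposite strand. Nisch had 8219 to 12573 reads per library against 0 to 29 for Tnnc1, and no source names the strand setting of the counting, so the Tnnc1 values are uncertain.

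Myl4 (MGP_C57BL6NJ_G0019669, chromosome 11, 111067539 to 111095647, plus strand) encodes the myosin essential light chain of the atrium and of embryonic muscle, a part of the thick filament. Myl4 stood at 1.498, 0.591, 1.03, 1.11 and 0.836 FPKM in WT replicates 1 to 5 and at 1.75, 1.96, 1.58, 0.863 and 3.10 FPKM in Ednrb-/- replicates 1 to 5. Unlike the other structural members, Myl4 had a higher mean in the mutant libraries, where all but replicate 4 exceeded the highest WT library. Mean levels were 1.01 ± 0.337 for WT and 1.85 ± 0.812 FPKM for the mutant (SD, n = 5 each), from 43 to 116 and 66 to 248 reads. The log2 difference was 0.60 (SE 0.26, limma adjusted p = 0.132, exact permutation p = 0.0556). Myl4 did not pass the test with all libraries, and did so in 1 of the 22 alternatives, the fit without Ednrb-/- replicate 4 (0.78, limma adjusted p = 0.0369), in which 7.63% of all genes rose.

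The 3 members of the MyoD family were at or near the limit of detection in most libraries, Myog in Ednrb-/- replicate 1 being the clearest exception. Myog (MGP_C57BL6NJ_G0016906, chromosome 1, 142970311 to 142972870, plus strand) encodes myogenin, which drives myoblasts to differentiate. Myog had 0, 0, 1, 0 and 4 reads in WT replicates 1 to 5 and 38, 0, 0, 0 and 6 reads in Ednrb-/- replicates 1 to 5. The 38 reads of Ednrb-/- replicate 1 (1.28 FPKM) stood alone, and 6 of the 10 libraries had none. The log2 difference of 0.36 had an exact permutation p of 0.564.

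Myod1 (MGP_C57BL6NJ_G0032746, chromosome 7, 49018128 to 49021926, plus strand) encodes MyoD, which commits cells to the muscle fate. Myod1 had 0, 2, 0, 0 and 1 reads in WT replicates 1 to 5 and 8, 0, 0, 0 and 4 reads in Ednrb-/- replicates 1 to 5, and its highest level was 0.218 FPKM. Myod1 and Myog thus had their highest counts in the same 2 mutant libraries, replicates 1 and 5. Myf5 (MGP_C57BL6NJ_G0018106, chromosome 10, 113477036 to 113480251, minus strand), which acts early in the somite, had 1 read in each of WT replicates 2 and 4 and Ednrb-/- replicate 4 and 0 in the others. The exact permutation p was 0.444 for Myod1 and 0.722 for Myf5, with log2 differences of 0.11 and -0.02. For these 3 genes, 3 reads are 0.0730 to 0.154 FPKM over the libraries, and at this depth a difference was not detectable. Myf6, the remaining factor of the family, had 5 reads in Ednrb-/- replicate 1, 1 read in replicate 4 and 0 elsewhere.

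**Figure D2:**
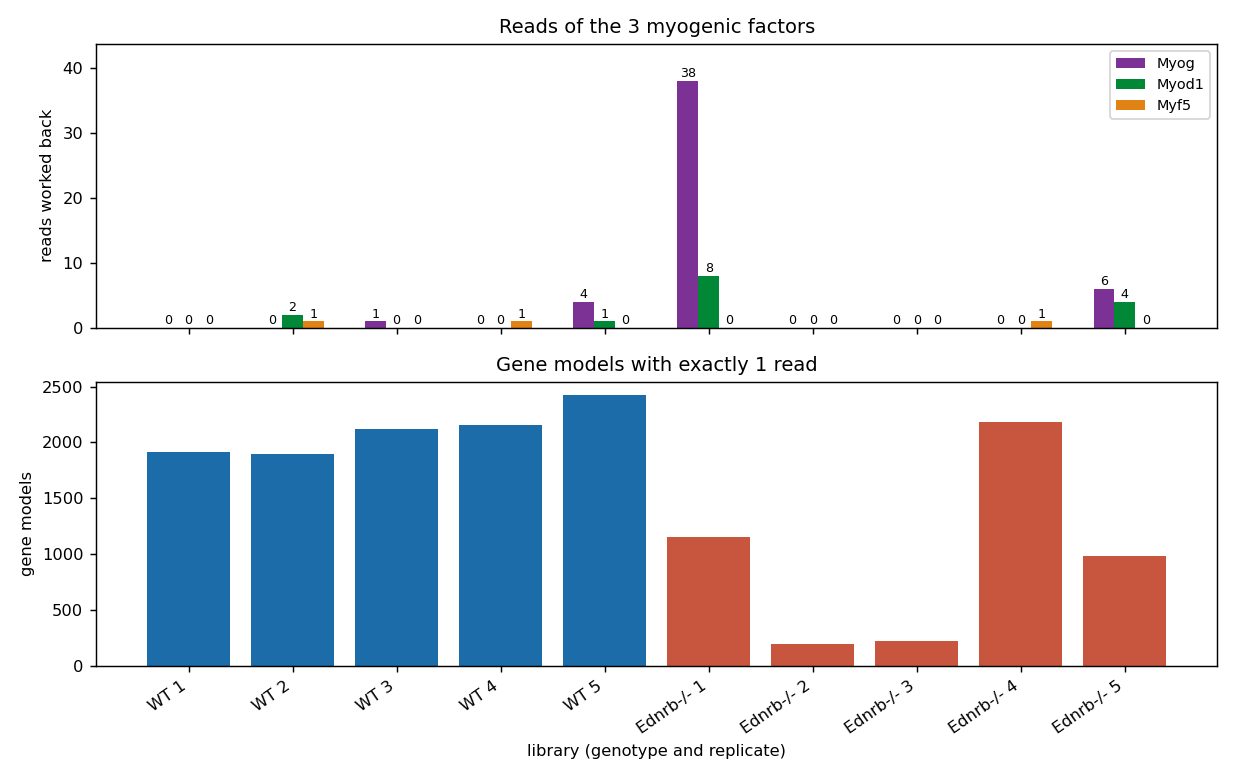
Upper panel: reads of Myog, Myod1 and Myf5 in each library. Lower panel: gene models with exactly 1 read in each library, blue for WT and red for Ednrb-/-. Myog stands out in Ednrb-/- replicate 1 with 38 reads, and the lower bars are shortest in Ednrb-/- replicates 2 and 3, at 191 and 224 models.

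Ordered by mean FPKM in WT, the members ran Actc1, Acta1, Des, Myl4, Tnnc1, Tnnt2, Tnni1, Myog, Myod1 and Myf5. FPKM divides by the length of the gene model, from 978 bases for Tnnc1 to 7751 bases for Tnnt2. The order therefore depends on those lengths. Tnnt2 ranked below Tnnc1 although it had 24 to 158 reads per WT library against 9 to 17 for Tnnc1. Acta1 and Des, at 9.78 and 9.73 FPKM, did not differ beyond their spread, nor did Actc1 differ from either beyond its SD of 9.05. Des and Myl4, the next step down, did not overlap in any WT library. From Myl4 to Tnni1, at 1.01, 0.823, 0.790 and 0.620 FPKM, each gene was within 1 SD of its neighbour in the order. In the mutant libraries the order was Actc1, Myl4, Des, Acta1, Tnnc1, Myog, Tnni1, Tnnt2, Myod1 and Myf5. Myl4 moved up to the second place there, at 1.85 FPKM, and lay within the spread of Actc1 at 2.88 FPKM.

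The members did not share 1 profile across libraries. Likeness was measured as the root mean square difference of centred log2(FPKM + 0.5) values over the 10 libraries, against 12544 protein-coding genes, where 0 is an identical profile. Acta1 was nearest to Gadd45b (0.41) and Plau (0.42), and its distance to Des was 0.51, with a median of 1.55 over all genes compared. Only 15 of the 12544 genes were nearer to Acta1 than Des, its nearest member. Des was nearest to S100a11 (0.24) and Prss23 (0.26), and 125 genes were nearer to it than Acta1, its nearest member. Actc1 was nearest to Bmp4 (0.45) and Lamb1 (0.50), with Des, its nearest member, at 0.54 and only 13 genes nearer than Des. The low-level members had other neighbours: Dnaaf3 and Pecr for Tnnc1 (both 0.27) and Trpc6 and Relb for Tnni1 (both 0.17). Their medians over all genes compared were also lower, at 0.68 for Tnnc1, 0.61 for Tnni1 and 0.55 for Myl4. A small distance for these members is therefore not a closer match than a larger one for Acta1. Myl4 was nearest to Fra10ac1 (0.17) and Atp5l (0.20), and 10994 of the 12544 genes were nearer to Myl4 than its closest member, Tnni1, at 0.84. All profiles here contain the genotype difference itself, so these distances are a description.

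**Figure D3:**
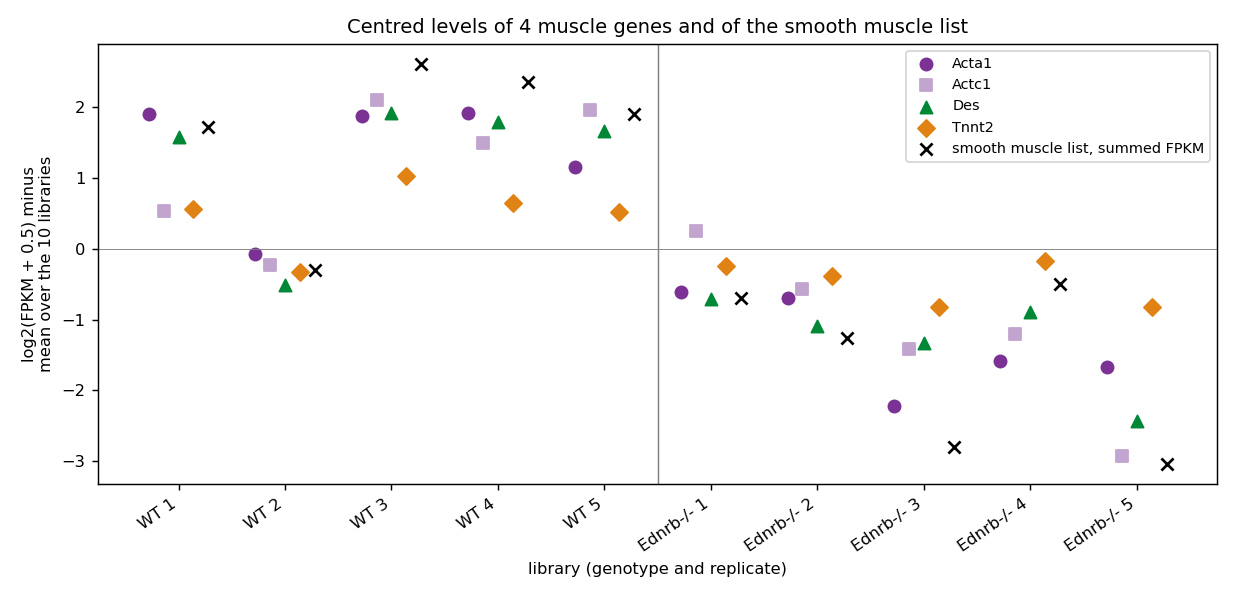
Log2(FPKM + 0.5) of Acta1, Actc1, Des and Tnnt2, and of the summed FPKM of the smooth muscle list (crosses), in each library, with the mean over the 10 libraries subtracted. WT replicate 2 lies below 0 for all 5 and the other 4 WT libraries above 0, whereas the mutant libraries lie below 0 except for Actc1 in Ednrb-/- replicate 1.

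Other genes of striated muscle were taken from 5 lists with 99 symbols, of which 98 were found and 31 passed the filter. By limma, 17 of the 31 fell (54.8%), 1 rose and 13 did not pass, where 13% of all genes tested fell and 6.53% rose. The median log2 difference was -0.73 against 0.0048 over all genes tested. The filter ignores genotype, so a gene could enter the test mainly through the group where it is higher. These lists were chosen with earlier results of these data known, so their shares are a description and not independent support. With Ednrb-/- replicates 2 and 3 left out, 11 of 30 fell and 0 rose, where 7.36% of all genes fell and 1.96% rose. The counts differed between the lists.

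Of the sarcomere and Z-disc genes, 9 of 10 tested fell and 0 rose, with a median of -1.79. They included Flnc, which encodes the filamin of muscle, at 33.7 ± 19.1 FPKM under WT and 5.61 ± 2.54 FPKM in the mutant (SD over 5 libraries each), a log2 difference of -2.43 (limma adjusted p = 0.00416). Tpm2, a tropomyosin on which troponin sits, fell by 2.49 (limma adjusted p = 0.00735). Pdlim5 and Pdlim7, LIM-domain proteins of the Z-disc that non-muscle cells also make, fell by 1.87 and 1.58. In the fit that leaves out Ednrb-/- replicates 2 and 3, 5 of the 10 fell.

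Of 19 cardiac fibre genes, 4 were tested, of which 3 fell and 0 rose, with a median of -2.17. Ankrd1, a stretch-responsive protein of muscle nuclei and sarcomeres, fell, with WT at 5.32 ± 2.92 FPKM and the mutant at 0.573 ± 0.453 FPKM (SD over 5 libraries each). Its log2 difference was -2.35, and its adjusted p by limma was 0.00500. Csrp3, the muscle LIM protein, fell by 1.99 and Nppb, which encodes a natriuretic peptide, fell by 2.96. Both had passed the filter through 5 WT libraries and 2 mutant libraries. Ryr2, the calcium release channel of heart muscle, was at 0.798 and 0.708 FPKM (-0.09, limma adjusted p = 0.817). The defining cardiac genes were not among those tested: the 15 untested genes, which include Myh6, Myh7, Myl2, Myl3 and Myl7, stayed below 1 FPKM in every library, the highest at 0.708 FPKM. Cardiac transcription factors had 2 of 10 genes tested, Smarcd3 and Tbx20, and neither passed (median -0.30).

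Of 30 skeletal fibre genes, 5 were tested, of which 1 fell and 1 rose, with a median of -0.26. Trim63, a ubiquitin ligase of muscle, fell by 1.60, with WT at 3.62 ± 0.943 FPKM and the mutant at 0.960 ± 0.706 FPKM (SD over 5 libraries each). Its adjusted p by limma was 0.00605. Mybpc1, a slow-muscle myosin-binding protein, rose by 0.94, with WT at 0.326 ± 0.155 FPKM and the mutant at 1.09 ± 0.312 FPKM (SD over 5 libraries each). Its adjusted p by limma was 0.00976, and it had passed the filter through 5 mutant libraries and 1 WT library. With Ednrb-/- replicates 2 and 3 left out, Mybpc1 missed the filter, and of the 4 genes then tested 1 fell and 0 rose. Mylpf (0.43), Casq1 (-0.73) and Actn3 (-0.26) did not pass. Of the 25 untested genes, 22 stayed below 1 FPKM in every library and 2 had no read in any.

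Among 20 regulators of skeletal muscle, 10 were tested, 4 fell and 0 rose, with a median of -0.56. Mef2c, a partner of the MyoD family, fell by 1.35, from 1.88 to 0.406 FPKM (limma adjusted p = 0.00448). It had passed the filter through 5 WT libraries and 1 mutant library. Mef2d fell by 0.61, and Megf10, a receptor of satellite cells and glia, fell by 1.15. With Ednrb-/- replicates 2 and 3 left out, 2 of the 10 fell. Pax3, which marks muscle progenitors but also the dorsal neural tube and neural crest, fell by 0.70 (limma adjusted p = 0.0223), and lost the call when any of WT replicates 3 and 4 or Ednrb-/- replicates 2 and 5 was left out, with an adjusted p of up to 0.0536. Srf and its cofactors Mkl1 and Mkl2 all fell, by 0.62, 0.50 and 0.77. Binding of these factors to the promoters printed above was not measured. The Mkl1 call was lost in 6 of the 10 fits without 1 library (limma adjusted p up to 0.0649).

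**Figure D4:**
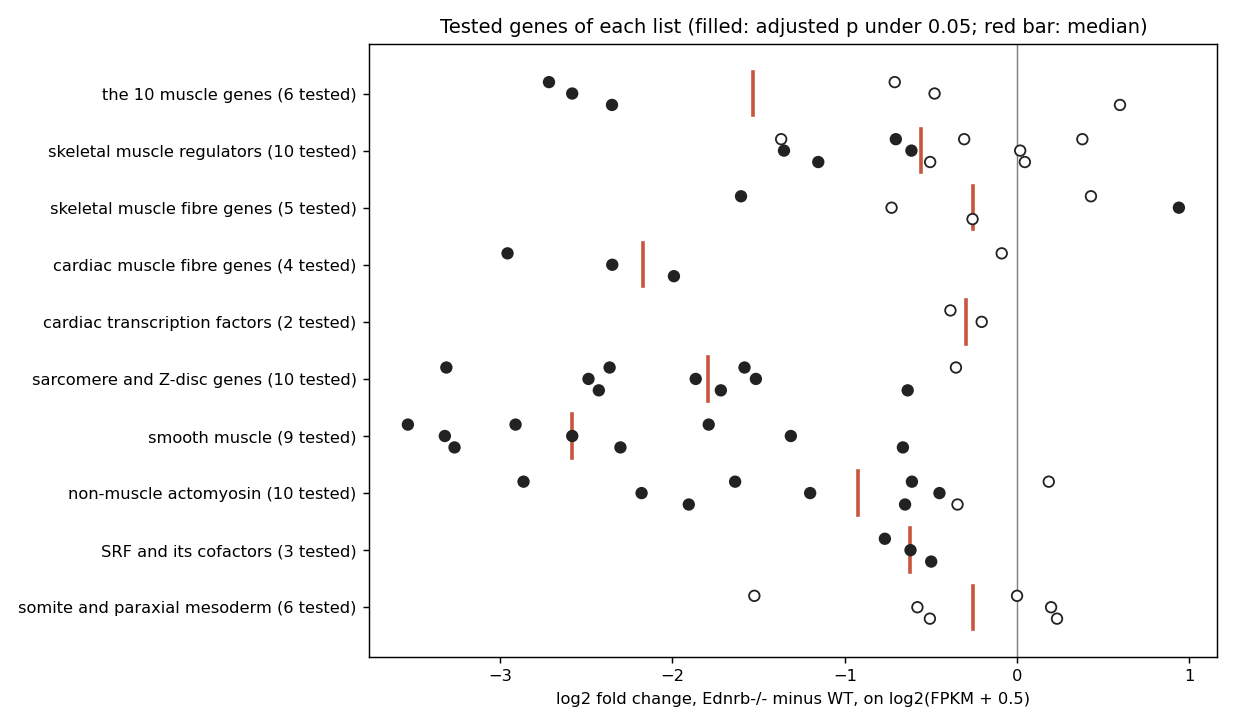
Log2 difference (Ednrb-/- minus WT, on log2(FPKM + 0.5)) of each tested gene in the 10 muscle genes and 9 lists, 1 point per gene, filled where the limma adjusted p is under 0.05, with the list median as a red bar. All 9 tested smooth muscle genes and 9 of 10 sarcomere and Z-disc genes are filled and left of 0, and none of the 6 somite genes is filled.

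Markers of some other cell types moved with these genes. For comparison, 13% of all genes tested fell and 6.53% rose. The marker lists were also chosen with earlier results of these data known. Smooth muscle genes fell in 9 of 9 tested cases with a median of -2.58, and their summed level was 331 to 2513 FPKM in WT and 49.4 to 290 FPKM in mutant libraries. The lowest WT sum was that of replicate 2, the library in which Acta1, Actc1, Des, Tnnt2, Tnni1, Tnnc1 and Myl4 were each also lowest among WT. Of the smooth muscle genes, 7 of 9 fell when Ednrb-/- replicates 2 and 3 were left out, where 7.36% of all genes fell. The Mylk and Actg2 calls were lost in several fits without 1 library (limma adjusted p up to 0.0885 and 0.0543). Mylk and Lmod1 had each passed the filter through 5 WT libraries and 2 mutant libraries. Fibroblast-like mesenchyme genes fell in 8 of 9 tested cases and rose in 1 (median -2.49, summed 114 to 641 FPKM in WT and 43.2 to 122 FPKM in mutant libraries). The gene that rose was Dcn, by 2.30, from a mean of 6.72 FPKM in WT to 44.2 FPKM in the mutant. The Twist1 and Col1a2 calls were lost in several fits without 1 library (limma adjusted p up to 0.0803 and 0.0630). Genes of non-muscle actin and myosin fell in 8 of 10 cases (median -0.93). The part of these cell types in the lower Acta1, Actc1 and Des levels was not tested.

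Somite genes, which mark the source of trunk skeletal muscle, had 0 of 6 tested genes called (median -0.25), and their sums overlapped, at 25.4 to 60.1 FPKM in WT and 23.8 to 52.5 FPKM in mutant libraries. The highest sums were in WT replicate 2 and Ednrb-/- replicate 1. These libraries also had the highest Pax7, a marker of muscle and dorsal neural progenitors, at 2.84 and 2.60 FPKM, and the other 8 were at 1.27 FPKM or less. Ednrb-/- replicate 1 had the highest Acta1, Actc1, Des, Tnni1, Tnnc1, Myog and Myod1 of the mutant libraries. It also had the highest Myh3, the embryonic myosin heavy chain, at 0.575 FPKM against at most 0.159 FPKM in the other 9. The remaining lists gave 6 of 8 neural crest genes lower (median -2.06) and 5 of 8 posterior Hox genes lower (median -2.08). Hoxa11, Hoxc11, Hoxc12 and Hoxd11 had each passed the filter through 5 WT libraries and 1 mutant library. The Hoxd10 and Foxd3 calls were lost in several fits without 1 library (limma adjusted p up to 0.0840 and 0.0679). These remaining lists also gave 1 of 2 endothelial genes lower, 1 of 8 neural tube progenitor genes lower and 6 of 7 neuronal genes higher (median 0.54). Over all genes tested, 13% fell and 6.53% rose, so the 1 of 8 was near the share of all genes. How far these lists bear on the muscle genes was not tested.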

How the data were processed

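RNA of 10 neural tube explant cultures, 5 per genotype and biological replicates per the labels, was sequenced. Per the submitters' processing notes, which name HISAT2 2.0.5, featureCounts 1.5.0-p3 and fastp, the build is mm10. This conflicts with the table, whose gene identifiers, contigs and coordinates are those of the C57BL/6NJ assembly, and the build used for counting is not known. Settings, strand and filters: not given in the sources used here. All values are FPKM, deposited by the authors in 1 table with a gene length column. Columns were matched to samples by genotype and replicate number, and 0 further columns of values per sample were present. FPKM times gene length gave whole reads for 100% of values within 0.01 of a read, so reads were worked back. Library totals limit precision for genes near 0.

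Genotypes were compared with limma (version 3.58.1, R 4.3.3) on log2(FPKM + 0.5), with a prior variance that follows the mean, over genes with at least 0.5 FPKM in at least 5 libraries. Two-sided p values were adjusted over 15156 genes by the Benjamini-Hochberg method and called at 0.05. This scale understates the change of low genes. Members were also tested by exact permutation over all 252 assignments of libraries. The fits were tested on simulated data with known changes.

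Within a genotype, the mean chi-square per gene between 2 libraries was 14.8 to 93.4, beyond sampling noise, so each library entered singly. The members and the 15 gene lists were chosen with earlier results of these data known. Named genes were all members, up to 4 tested genes with the lowest p per list, the 2 protein-coding genes nearest to each tested member, and Ednrb; other named genes were chosen after their values were seen. The symbols Actn2, Actg1 and Map2 were not matched and are not used here, and 2 cofactors of SRF are given under the older symbols of the table. Alternatives were another pseudocount (0.1 or 1), filter, scaling, voom on the reads, library weights, a replicate block and leaving out libraries.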

Additional observations from a re-analysis of the deposited data

Results flagged for a closer look

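The 10 members in each genotype made 20 groups of 5 libraries. In each group, the gap between the highest or lowest library and its nearest neighbour was divided by the range. In 4 groups this ratio exceeded Dixon's critical value of 0.71. Chance meets this criterion in about 1 group in 20 for normally distributed values, a rate that does not hold for groups mostly at 0. Myog met it in both genotypes, through the 1.28 FPKM (38 reads) of Ednrb-/- replicate 1 and the 0.198 FPKM (4 reads) of WT replicate 5. Myf5 met it through the 0.0296 FPKM of Ednrb-/- replicate 4, which is 1 read. The other 4 mutant libraries were at 0, a pattern that meets the criterion by construction. Des met it through the lowest WT library, replicate 2, at 2.05 FPKM.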

How the results depend on the processing

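Across all 22 alternatives, Acta1 and Des kept their direction and an adjusted p under 0.05, and the number of members that fell was 2 to 4. With 1 library left out, limma gave 1898 to 3240 genes in all past the threshold against 2956, 3 to 4 members lower and 0 to 1 members higher; the counts near the low end, 1898, 1912 and 1902, came without WT replicates 3, 4 and 5. Without Ednrb-/- replicates 2 and 3, an alternative chosen after seeing the data that leaves fewer libraries, 1383 genes passed and Tnnc1 changed sign, to 0.13 (limma adjusted p = 0.772). The voom fit on whole reads called 2967 genes, and 3122 with no filter, where the median over all genes shifted to -0.18. The cause of these shifts was not tested.

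With the replicate number as a block, 1877 genes and 2 members passed, and the limma adjusted p was 0.0146 for Acta1, 0.0159 for Des and 0.0604 for Actc1. Libraries of the same number deviated together only weakly, with correlations from -0.163 to 0.153, and not every library was closest to its own number, so the numbers were not taken as pairs. With no filter and the block, the limma adjusted p of Tnnt2 was 0.122. Myod1 and Myf5 had at most 8 reads in any library, so small differences in them could not be measured.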

Other observations

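Among the cardiac transcription factors below the filter, Hand1, which acts in the heart tube and in other mesoderm, was named after its values were seen. Hand1 was at 1.37, 0.162, 3.06, 3.49 and 3.26 FPKM in WT replicates 1 to 5 and at 0.126, 0, 0.0547, 0.0615 and 0.0589 FPKM in Ednrb-/- replicates 1 to 5. Every WT library was above every mutant library, and WT replicate 2 was again the lowest of the WT libraries. That replicate and Ednrb-/- replicate 1 had 5 reads each, so the separation of these libraries rests on scaling alone. Complete separation with the mutant libraries lower held for 8.44% of all genes tested, a set without Hand1. Nkx2-5, a defining factor of heart muscle, was at 0.125 and 0.0486 FPKM in WT replicates 3 and 5 and at 0 in the other 8 libraries.

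Fast troponin T and a perinatal myosin, both from the skeletal fibre list and also named after their values were seen, differed in their pattern. Tnnt3 ranged from 0.418 to 1.71 FPKM in WT and from 0 to 0.432 FPKM in Ednrb-/- libraries, with WT replicate 2 as the only overlap. Tnnt1, another troponin T of the same list, went the other way, with mean levels of 0.381 FPKM in WT and 0.493 FPKM in the mutant. Its groups overlapped. Myh8 was at 1.68 FPKM in WT replicate 1 and at most 0.426 FPKM in the other 9 libraries.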
